A study of Mus musculus with 6 samples.

Results

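The genes described here are 10 genes of the integrated stress response, the transcription factor Atf4 and genes that it or its partners control: Atf4, Atf5, Ddit3, Trib3, Ppp1r15a, Chac1, Asns, Phgdh, Psat1 and Mthfd2. They were chosen by name from a table of 55995 features, in which Ddit3 has 2 rows and each of the others 1, so 11 rows in all. RNA was sequenced from the gastrocnemius, a calf muscle of mostly fast-twitch fibres, of NSG mice (NOD/SCID/IL2Rγ-null), which lack mature T, B and NK cells. All mice carried a subcutaneous tumour on the left flank, raised from wild-type MDA-MB-231 cells, a human breast cancer line, injected with Matrigel. In the radiotherapy group (RT, 3 libraries) the tumour received one local dose of 10 Gy (6 MV X-rays, 6 Gy per minute) when it had reached about 800 mm3, and the contralateral muscle was collected after 3 days. The CT group (control, 3 libraries) was labelled only as control, with no day of sampling or tumour volume of its own, so a difference in either cannot be told apart from irradiation. The sources used here give neither age nor sex of the mice.

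The integrated stress response is a shared answer of cells to amino acid shortage, misfolded protein in the endoplasmic reticulum (ER), haem shortage or viral RNA. A kinase that senses one of these phosphorylates the translation factor eIF2, which lowers general protein synthesis while translation of Atf4 mRNA goes up. ATF4 protein then drives genes for amino acid synthesis and import, for glutathione breakdown and for feedback on the response itself, and much of this control acts on translation, which RNA levels do not show.

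Values are TPM, which the authors scaled for transcript length and for the size of each library, so levels of different genes can be set side by side. The table holds no counts, and the depth is unknown. Whether each library came from its own mouse is not labelled, and p-values therefore measure only the spread between these libraries, which may be technical. All 10 muscle fibre markers were present. They summed to 159992, 166093 and 96197 TPM in RT replicates 1, 2 and 3, against 110688 to 125642 TPM in CT. RT replicates 1 and 2 thus lay above every CT library and RT replicate 3 below every one. Not every marker followed this sum: Des was at 1359, 1223 and 2902 TPM in RT against 1771 to 2544 TPM in CT. Lymphocyte markers summed to at most 0.28 TPM. RT replicate 3 stood apart from RT replicates 1 and 2 in many genes, so the members are given for each library and with and without it, and the other pathway genes for each library and by counts without it. Neutrophil markers, for example, (8 of 8 found, 7 averaging 1 TPM or more) summed to 10.6, 18.6 and 2968 TPM in RT replicates 1, 2 and 3, against 74.2 to 186 TPM in CT. Adipocyte markers summed to 2179, 2034 and 434 TPM in RT against 368 to 981 TPM in CT. Car3 was the largest part of this sum, at 1867, 1869 and 217 TPM in RT against 316 to 686 TPM in CT. The other adipocyte markers, Adipoq, Cidec, Plin1, Lep and Cfd, were each highest in CT replicate 1. Tendon markers summed to 56.7, 45.3 and 8.80 TPM in RT against 8.23 to 19.2 TPM in CT. Fibroblast markers summed to 152 to 167 TPM in RT against 129 to 207 TPM in CT, erythroid markers to 847 to 1307 TPM against 312 to 1395 TPM, and hepatocyte markers to 12.3 to 28.4 TPM against 7.31 to 31.4 TPM.

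None of the 10 genes passed the test between RT and CT muscle. Of the 10, 8 had their highest level of all 6 libraries in RT replicate 3, beside 30.0% of all tested features. In that library Atf4, Ppp1r15a and Trib3 lay above every CT library, while in RT replicates 1 and 2 the same 3 genes lay below every CT library. This pattern was found in 19.3% of all tested features. Ddit3 did not share this pattern: it was high in RT replicate 1 only. The median log2 change of the 10 genes was 0.13, beside -0.36 for all tested features, and -0.27 beside -0.57 without RT replicate 3.

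A mean of 1 TPM or more was required for testing, which left 11938 features. Of these, 7 (0.0586%) passed at an adjusted p under 0.05 (limma, Benjamini-Hochberg, two-sided), 0.0419% as higher and 0.0168% as lower. All 11 rows of the members were among those tested, and 0 passed. At an unadjusted p under 0.05 there were 0 of the 11, beside 14.4% of all tested features, 1.18% higher and 13.3% lower. In 0 of the 11 rows did the RT libraries lie wholly above or wholly below the CT libraries, beside 1.73% of all tested features wholly above and 19.3% wholly below. The share of features with a log2 change below 0 was 78.5% of all tested, and 3 of the 10 genes (Atf4, Atf5 and Ppp1r15a). For one gene, exact permutation of 3 libraries against 3 has 0.1 as its smallest p.

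**Figure D1:**
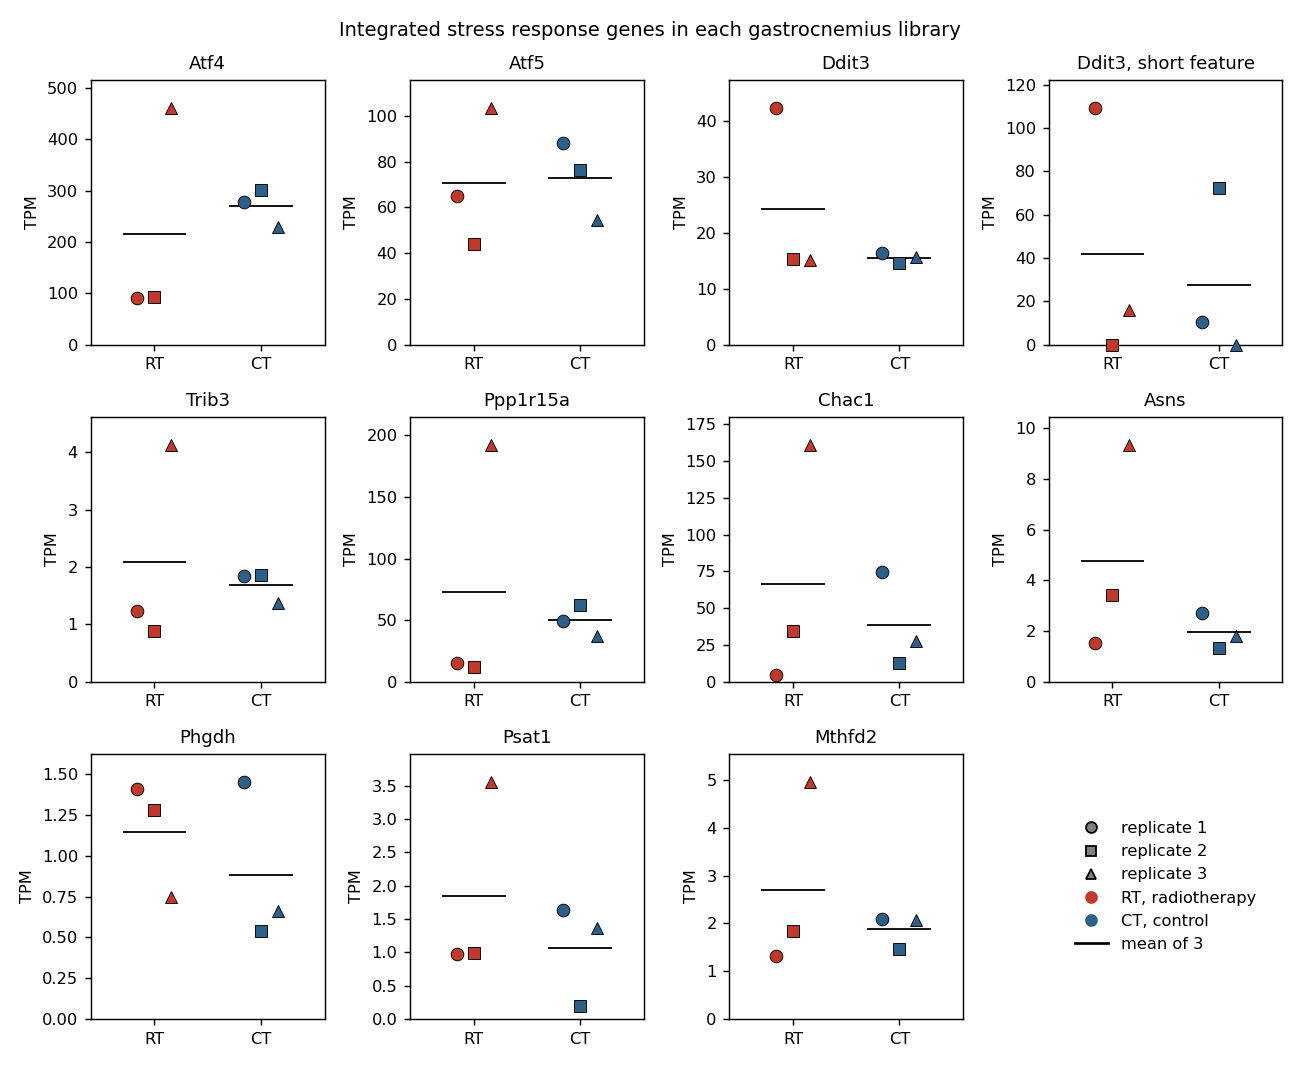
TPM of each gene in each library (vertical axes, linear from 0), with RT in red, CT in blue, the replicate number by shape and the mean of 3 libraries as a line. RT replicate 3 is the highest of the 6 points in 8 genes, while both Ddit3 rows are highest in RT replicate 1 and Phgdh in CT replicate 1.

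The transcription factors were the most abundant group. Atf4, the bZIP factor at the centre of the response, was at 90.5, 92.6 and 461 TPM in RT replicates 1, 2 and 3, against 279, 301 and 229 TPM in CT replicates 1, 2 and 3. RT replicates 1 and 2 were thus below the lowest CT library and RT replicate 3 above the highest, and the means were 215 ± 213 TPM in RT and 270 ± 36.9 TPM in CT (SD, n = 3 each). The log2 change of Atf4, on the scale of log2(TPM + 1) and as RT minus CT, was -0.77 (SE 0.63, adjusted p = 0.542). Without RT replicate 3 it was -1.54 (SE 0.18) and passed, at an adjusted p of 0.012. In that setting 27.6% of all tested features passed as lower and 1.98% as higher, with a median log2 change of -0.57.

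Atf5, a bZIP factor related to Atf4 that takes part in the mitochondrial stress response, was at 64.9, 43.9 and 103 TPM in RT replicates 1, 2 and 3, against 88.2, 76.4 and 54.6 TPM in CT. The groups overlapped, with RT replicate 2 the lowest and RT replicate 3 the highest of the 6, and the spread of Atf5 was narrower than that of Atf4. Its log2 change was -0.10 (SE 0.39, adjusted p = 0.901), -0.42 (adjusted p = 0.285) without RT replicate 3, and 0.36 with median-of-ratios scaling, under which the median of all tested features was 0.01. In GENCODE M21, a mouse annotation matched by Ensembl identifier, exons of Nup62 and Il4i1 on the opposite strand share 82 bases, or 4.11%, of the exon bases of Atf5.

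Ddit3, which encodes the bZIP factor CHOP, a partner of ATF4 in prolonged stress, was at 42.2, 15.2 and 15.2 TPM in RT replicates 1, 2 and 3, against 16.4, 14.5 and 15.6 TPM in CT. Apart from RT replicate 1, the libraries lay between 14.5 and 16.4 TPM, so Ddit3 did not follow Atf4 in RT replicate 3. Its log2 change was 0.45 (SE 0.42, adjusted p = 0.595), with 0.68 (adjusted p = 0.238) without RT replicate 3 and -0.03 without RT replicate 1. The second row named Ddit3 is a feature with a single transcript of 105 bases in GENCODE M21, all of which lie in exons of the longer Ddit3 feature on the same strand. It was listed at 109, 0 and 15.9 TPM in RT replicates 1, 2 and 3, against 10.4, 72.4 and 0 TPM in CT, with both 0 and a high value in each group. The sources used here do not say how reads were divided between the 2 features, so both rows are uncertain. With the rows summed, a setting added after the values were seen, the log2 change of Ddit3 was 0.32 (adjusted p = 0.871). The longer feature also shares 68 exon bases with the methionyl-tRNA synthetase gene on the opposite strand, and the sources used here do not say whether strand was used.

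Both feedback regulators were split within the RT group. Ppp1r15a encodes GADD34, the phosphatase subunit that removes the phosphate from eIF2 and so ends the response. It was at 15.2, 11.8 and 192 TPM in RT replicates 1, 2 and 3, against 49.6, 62.6 and 37.3 TPM in CT. RT replicate 3 was at 3.85 times the CT mean, and RT replicates 1 and 2 were at 0.305 and 0.236 times it. The log2 change was -0.54 (SE 0.98, adjusted p = 0.789). Without RT replicate 3 it was -1.79 (SE 0.27) and passed as lower, at an adjusted p of 0.0137. In that setting 2 of the 10 genes, Atf4 and Ppp1r15a, passed as lower, beside 27.6% of all tested features.

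Trib3, a pseudokinase induced by ATF4 and CHOP that restrains their activity, was at 1.24, 0.89 and 4.12 TPM in RT replicates 1, 2 and 3, against 1.85, 1.86 and 1.37 TPM in CT. The order of the libraries was like that of Ppp1r15a, at levels near 1 TPM. Its log2 change was 0.06 (SE 0.41, adjusted p = 0.95), and -0.38 (adjusted p = 0.207) without RT replicate 3. The pattern of RT replicates 1 and 2 below and RT replicate 3 above every CT library was thus found in 3 of the 10 genes, beside 19.3% of all tested features.

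Chac1, an enzyme that breaks down glutathione, spread widely in both groups. It was at 4.82, 34.8 and 161 TPM in RT replicates 1, 2 and 3, against 74.8, 13.0 and 27.7 TPM in CT. The lowest and the highest library were both RT libraries, 33.3-fold apart, and the CT libraries lay between them. The log2 change was 0.05 (SE 1.19, adjusted p = 0.987), and it took both signs when single libraries were left out, from -1.11 without RT replicate 3 to 1.28 without RT replicate 1.

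The amino acid and one-carbon enzymes lay at low levels in this muscle, with means of 0.883 to 1.95 TPM in CT. Asns, asparagine synthetase, was at 1.54, 3.40 and 9.32 TPM in RT replicates 1, 2 and 3, against 2.71, 1.33 and 1.81 TPM in CT. RT replicates 2 and 3 were above every CT library and RT replicate 1 was inside the CT range. Its log2 change, 0.75 (SE 0.51, adjusted p = 0.49), was the largest positive one of the 10 genes and stayed above 0 in all 15 alternatives in which it was tested, from 0.21 without RT replicate 3 (adjusted p = 0.638) to 1.22 without RT replicate 1.

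Psat1, phosphoserine aminotransferase of the serine pathway, was at 0.98, 0.99 and 3.55 TPM in RT replicates 1, 2 and 3, against 1.63, 0.19 and 1.37 TPM in CT. The log2 change was 0.42 (SE 0.47, adjusted p = 0.651), with CT replicate 2 far below the other libraries and RT replicate 3 above them. It came to 0.03 (adjusted p = 0.964) without RT replicate 3 and to 0.07 without CT replicate 2. Mthfd2, a mitochondrial enzyme of the folate cycle, was at 1.32, 1.84 and 4.95 TPM in RT replicates 1, 2 and 3, against 2.09, 1.47 and 2.08 TPM in CT. RT replicate 3 lay above the CT range and RT replicate 1 just below it, and the log2 change was 0.25 (SE 0.39, adjusted p = 0.758), against -0.16 (adjusted p = 0.589) without RT replicate 3. Phgdh, the dehydrogenase that opens the serine pathway one step before Psat1, was at 1.41, 1.28 and 0.75 TPM in RT replicates 1, 2 and 3, against 1.45, 0.54 and 0.66 TPM in CT. Its highest and lowest libraries were both CT libraries, and RT replicate 3 was the lowest of its group, unlike Psat1, Asns and Mthfd2. The log2 change of Phgdh was 0.21 (SE 0.31, adjusted p = 0.745), 0.35 (adjusted p = 0.347) without RT replicate 3 and 0.08 without CT replicate 2, and its mean over the 6 libraries, 1.01 TPM, was just inside the minimum for testing.

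**Figure D2:**
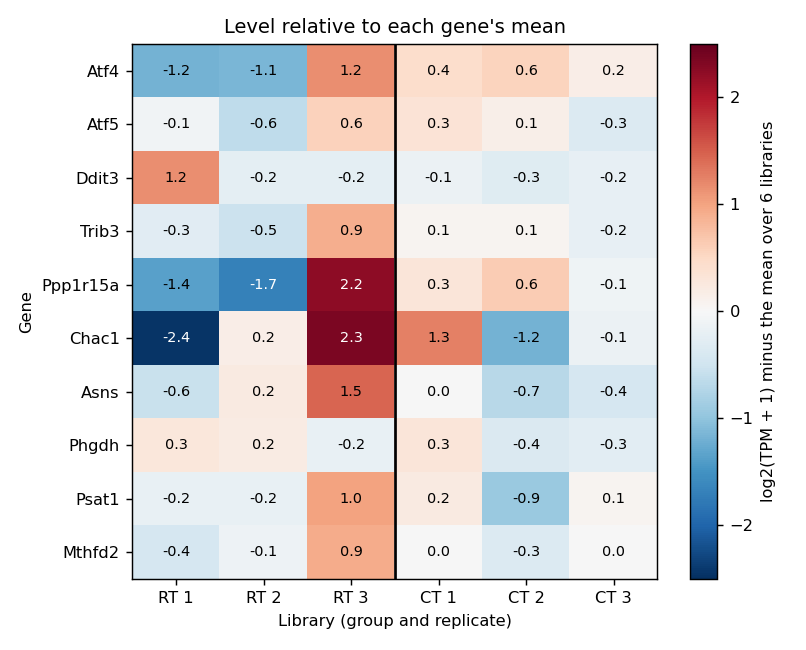
Level of each of the 10 genes in each library as log2(TPM + 1) minus that gene's mean over the 6 libraries, in colour and as a number, with the RT libraries left of the line and the CT libraries right of it. The column of RT replicate 3 reaches 2.35 and 8 of its 10 cells are the highest of their row, while RT replicate 1 holds both the lowest cell, -2.45 for Chac1, and the high cell of Ddit3.

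Across the 10 genes, the mean of log2(TPM + 1) was 3.05, 3.16 and 4.58 in RT replicates 1, 2 and 3, against 3.83, 3.32 and 3.41 in CT. RT replicate 3 was thus the highest of the 6 and RT replicates 1 and 2 the lowest, below the CT range. The same mean over all tested features was 2.95, 2.88 and 3.50 in RT against 3.60, 3.40 and 3.37 in CT, so these libraries were also low over all features, while RT replicate 3 lay inside the CT range there. RT replicate 3 was the highest library for 8 of the 10 genes, beside 30.0% of all tested features. RT replicates 1 and 2 were below every CT library for 3 of the 10 genes, beside 58.8% of all tested features. Some markers of other cells were also high in RT replicate 3. Macrophage markers summed to 61.8, 101 and 371 TPM in RT replicates 1, 2 and 3, against 63.3 to 199 TPM in CT. Lyz2 and Cd68 made up most of this in RT replicate 3, at 190 and 121 TPM. Csf1r was also above the CT range there, while Adgre1, Fcgr1, Mrc1, C1qa and C1qb lay inside it. Endothelial markers summed to 51.3, 49.4 and 156 TPM against 69.7 to 81.3 TPM. In RT replicate 3 Cldn5, Cdh5 and Emcn were above the CT range, Pecam1 inside it, and Tek and Kdr below it. The part of these cells in the levels of the 10 genes was not tested. In bulk tissue a change in the number of cells cannot be told apart from a change in RNA per cell.

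By level, Atf4 was the most abundant of the 10 genes, with its lowest CT library above the highest CT library of any other. Atf5, Ppp1r15a and Chac1 followed in CT, with means of 73.1 ± 17.1, 49.8 ± 12.7 and 38.5 ± 32.3 TPM (SD, n = 3 each), and the ranges of neighbours in this order overlapped. Ddit3, at 15.5 ± 0.915 TPM in CT, overlapped with Chac1. Asns, Mthfd2, Trib3, Psat1 and Phgdh followed in that order, at 1.95 to 0.883 TPM, and the range of each overlapped with that of its neighbours.

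**Figure D3:**
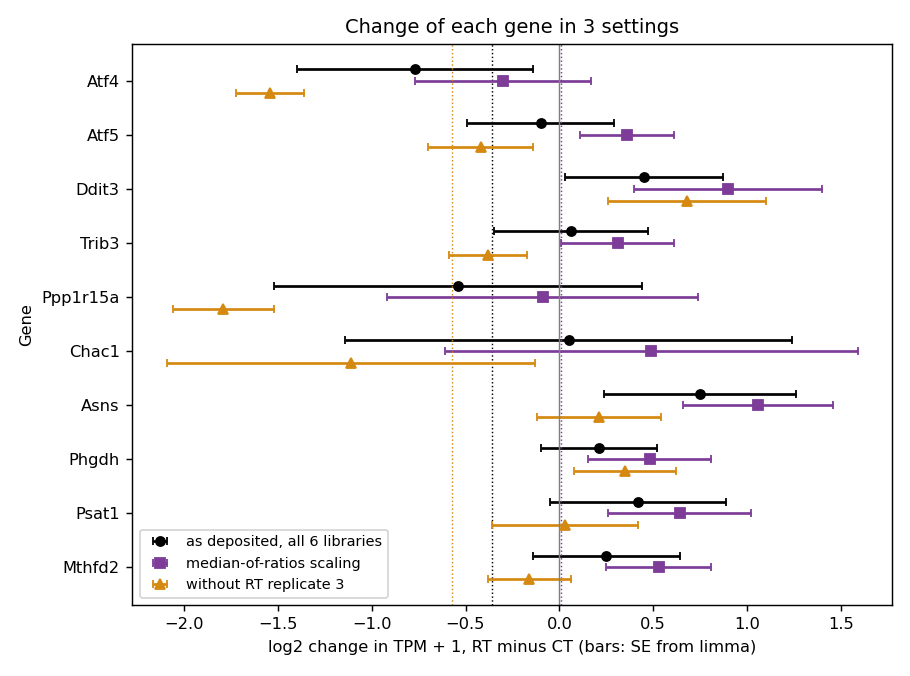
Log2 change of each gene in TPM + 1, RT minus CT, with the SE from limma as bars, as deposited with all 6 libraries (black), with median-of-ratios scaling (purple) and without RT replicate 3 (orange). Dotted lines mark the median of all tested features in the same setting, -0.36, 0.01 and -0.57; Atf4 and Ppp1r15a lie at -1.54 and -1.79 without RT replicate 3.

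With the members left out of the search, the 5 features most like Atf4 over the 6 libraries were Hnrnpf, Rgcc, Zrsr2, Wdr77 and Stx7. Likeness was measured as the root mean square difference between profiles of log2(TPM + 1), each centred on its own mean, among 6733 named features averaging 5 TPM or more. The differences ran from 0.095 for Hnrnpf, an RNA-binding protein, to 0.107 for Stx7, a syntaxin of endosomes. Hnrnpf was at 18.2, 16.9 and 108 TPM in RT replicates 1, 2 and 3, against 56.7, 67.1 and 48.3 TPM in CT. Among the members Ppp1r15a was nearest to Atf4, at 0.51, with 28.5% of the 6733 features closer. Trib3 stood at 0.54 and Atf5 at 0.60, while Chac1, at 1.19, and Ddit3, at 1.26, were farther than 91.5% and 93.1% of those features. Low genes such as Trib3 and Psat1 vary less on this scale because 1 TPM is added.

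The promoters of 3 of the 10 genes, Asns, Chac1 and Trib3, hold a short motif that ATF4 is known to bind with C/EBP partners. These 3 are among the 8 genes highest in RT replicate 3. Atf4, Atf5, Ppp1r15a, Psat1 and Mthfd2 are also among the 8 and hold no match in the windows searched. Ddit3 and Phgdh, which are not among the 8, hold no match either. A link between the motif and that pattern was not tested. The motif searched was TGATGNAA, the core of the C/EBP-ATF response element, on both strands, in RefSeq promoter windows of build GRCm38.p6 that run from 250 bases before to 50 after the start of a gene. All 10 genes matched by symbol, with 12 windows in all. A match was found in 3 of the 10 genes, beside 4.51% of 27025 genes. The 10 were chosen as genes of the ATF4 response, so a larger share than over all genes is built into the list. Each sequence below has 30 bases, written 5′ to 3′ on the strand of the gene, with the match in capitals. For Asns the match is on the gene's strand, and for Chac1 and Trib3 it is on the other strand, so the capitals show its reverse complement.
Asns: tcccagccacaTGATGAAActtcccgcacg
Chac1: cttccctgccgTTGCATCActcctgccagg
Trib3: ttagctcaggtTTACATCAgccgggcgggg
The stretch of Asns lies at chr6:7693214-7693243 on the minus strand, with the match ending 16 bases before the start of the gene. That of Chac1 lies at chr2:119351038-119351067 on the plus strand, with the match ending 186 bases before the start. That of Trib3 lies at chr2:152344028-152344057 on the minus strand, with the match ending 21 bases after the start. The ER stress response element was searched in the same way and was found in 0 of the 10 genes and in 0.137% of all genes. A match is a description of these letters and not a measured binding site.

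Other genes of the pathway, 62 in 9 groups by role, showed 0 calls over all genes by limma in either direction, with 10 at an unadjusted p under 0.05, all lower, beside 13.3% of all tested features lower at that level. Of the 62, 54 were tested, and the log2 change was negative for 49 of them, where 78.5% of all tested features were negative. Their median was -0.67 beside -0.36 for all tested features, and -0.23 beside 0.01 with median-of-ratios scaling. In 9 of the 54 the RT libraries lay wholly below the CT libraries and in 0 wholly above, beside 19.3% and 1.73% of all tested features. When RT replicate 3 was left out, 28 of the 54 were called lower and 0 higher, beside 27.6% and 1.98% of all features. The 18 genes of these groups named below by rule were picked for the smallest p in these same libraries. Their calls therefore add nothing to the count over the 54. Of the 18, 15 were called lower without RT replicate 3 and 0 higher, and Eif2ak2, Eif2b2 and Vegfa were not called. RT replicate 3 was the highest library in 17 of the 54, beside 30.0% of all tested features.

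Among the kinases that phosphorylate eIF2, Eif2ak1, the haem-regulated one, was at 5.24, 4.59 and 9.51 TPM in RT replicates 1, 2 and 3, against 13.2, 12.0 and 8.88 TPM in CT. Eif2ak2, the kinase induced by interferon and double-stranded RNA, was at 0.74, 0.70 and 0.80 TPM in RT against 2.94, 1.02 and 0.93 TPM in CT, wholly below but close to the lower CT libraries. The log2 changes were -0.77 (adjusted p = 0.344) for Eif2ak1 and -0.51 (adjusted p = 0.492) for Eif2ak2. All 9 genes of eIF2, its exchange factor eIF2B and the constitutive phosphatase subunit had negative log2 changes, where 78.5% of all tested features did. All 9 lay below every CT library in RT replicates 1 and 2, beside 58.8% of all tested features. Their median was -0.70, and -0.25 with median-of-ratios scaling. Eif2s2, the beta subunit of eIF2, was at 40.7, 40.1 and 93.8 TPM in RT against 113, 99.1 and 102 TPM in CT. Eif2b2, the beta subunit of eIF2B, was at 42.5, 35.1 and 48.2 TPM in RT against 58.0, 84.3 and 59.8 TPM in CT, and in both genes the RT libraries lay wholly below the CT libraries.

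The bZIP partner Atf3 was at 3.70, 2.53 and 18.7 TPM in RT replicates 1, 2 and 3, against 23.6, 10.9 and 20.5 TPM in CT, so RT replicate 3 stayed inside the CT range where Atf4 lay above it. Cebpg, a C/EBP partner of ATF4, was at 7.14, 5.66 and 17.3 TPM in RT against 15.6, 15.8 and 11.9 TPM in CT. Slc7a11, the cystine importer, lay wholly below CT, at 0.36, 0.68 and 1.99 TPM in RT against 9.11, 7.50 and 2.39 TPM in CT, a log2 change of -1.80 (SE 0.50, adjusted p = 0.283). Slc38a2, a neutral amino acid transporter, was at 13.5, 13.7 and 57.2 TPM in RT against 56.8, 35.3 and 55.5 TPM in CT. Cth, which makes cysteine from cystathionine, was at 0.67, 0.41 and 0.59 TPM in RT against 3.38, 3.23 and 2.93 TPM in CT, a log2 change of -1.43 (SE 0.24, adjusted p = 0.192). Gpt2, a mitochondrial alanine aminotransferase, was at 46.2, 43.7 and 34.3 TPM in RT against 68.2, 68.8 and 65.9 TPM in CT.

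The 13 genes of tRNA charging and export had log2 changes from -0.92 to -0.07, all negative where 78.5% of all tested features were, and all 13 lay below every CT library in RT replicates 1 and 2, beside 58.8% of all tested features. With median-of-ratios scaling their median was 0.02 and 7 of the 13 lay above 0. Iars, isoleucyl-tRNA synthetase, was at 9.34, 9.82 and 19.8 TPM in RT against 26.5, 27.2 and 19.5 TPM in CT, and Eprs, the synthetase for glutamate and proline, at 26.6, 29.0 and 69.0 TPM against 75.4, 72.2 and 54.3 TPM. The brakes on mTORC1 had lower means in RT than in CT. Sesn2, a leucine sensor, was at 0.68, 0.35 and 1.43 TPM in RT against 2.79, 2.67 and 2.93 TPM in CT, and Ddit4, which restrains mTORC1 under stress, at 18.9, 27.8 and 85.2 TPM against 88.5, 78.0 and 139 TPM. Over all 6 libraries neither passed the test, with adjusted p of 0.276 for Sesn2 and 0.332 for Ddit4, and without RT replicate 3 both passed as lower, at an adjusted p of 0.014 each.

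Of the secreted factors, Fgf21, a stress hormone of muscle and liver, was listed at 0 in all RT libraries and reached 0.06 TPM in one CT library. Gdf15, a cytokine induced by ATF4, CHOP and p53, was at 0.07, 0.14 and 0.28 TPM in RT replicates 1, 2 and 3, against 6.80, 3.66 and 2.97 TPM in CT, and its log2 change was -2.18 (adjusted p = 0.183). Vegfa, an endothelial growth factor, was at 62.1, 37.5 and 45.7 TPM in RT replicates 1, 2 and 3, against 144, 33.7 and 138 TPM in CT. Bbc3, the death gene PUMA that p53 also drives, was at 1.93, 0.68 and 1.49 TPM in RT against 6.97, 5.49 and 4.30 TPM in CT (log2 change -1.49, adjusted p = 0.238). Vldlr, a lipoprotein receptor, was at 10.1, 11.6 and 51.1 TPM in RT against 63.9, 41.8 and 42.3 TPM in CT.

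**Figure D4:**
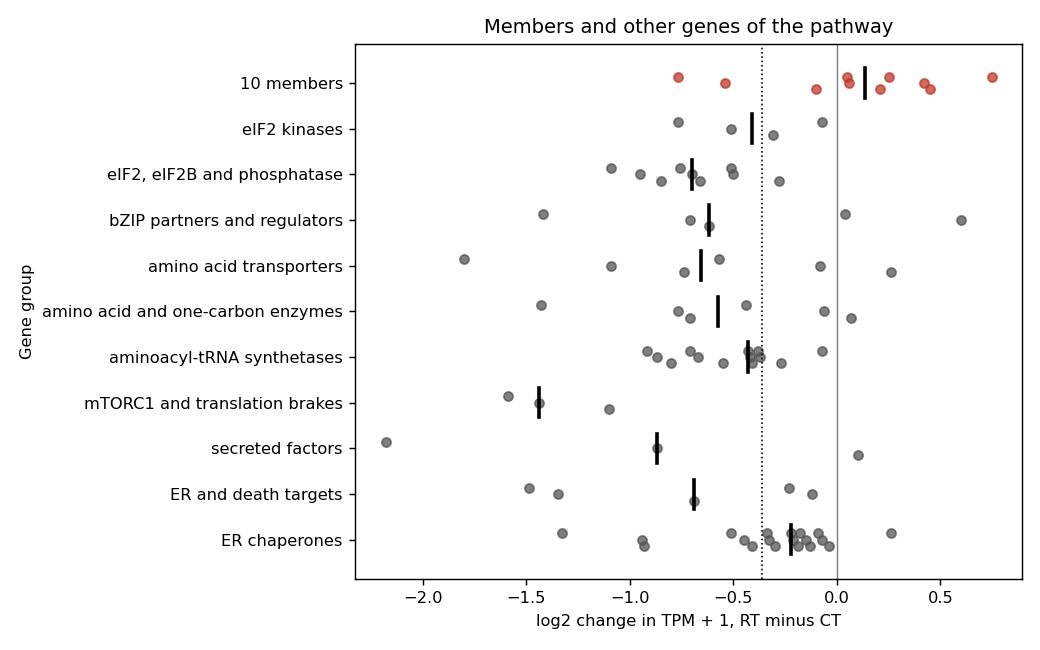
Log2 change in TPM + 1, RT minus CT, of the 10 members (red) and of the tested genes of each pathway group and of the ER chaperones (grey), with the median of each group as a bar and the median of all tested features, -0.36, as a dotted line. The members' median is 0.13, but -0.27 without RT replicate 3. The medians of the 9 pathway groups run from -1.44 to -0.41, while with median-of-ratios scaling that of tRNA charging is 0.02.

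ER chaperones and genes of the XBP1 and ATF6 branches, which answer to misfolded protein beside the integrated stress response, were also highest in RT replicate 3, for 18 of 19 tested genes, beside 30.0% of all tested features. Of these, 0 passed over all genes by limma, with 0 at an unadjusted p under 0.05. Canx, the chaperone calnexin, was at 8.96, 9.08 and 57.3 TPM in RT replicates 1, 2 and 3, against 55.2, 42.5 and 37.2 TPM in CT. Dnajb9, an ER co-chaperone, was at 6.51, 7.38 and 43.2 TPM in RT against 23.7, 33.1 and 22.5 TPM in CT. The median log2 change of the group was -0.22, beside -0.36 for all tested features, and 0.12 beside 0.01 with median-of-ratios scaling. Of the 19, 8 passed as lower without RT replicate 3, beside 27.6% of all tested features.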

How the data were processed

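Per the labels' protocols, total RNA of mouse gastrocnemius was made into TruSeq libraries. The deposited values are TPM, scaled by the authors for transcript length and to the same total in each library. The submitters' processing notes name HISAT2, StringTie, RSEM and the build mm9, with no version or role. The sources used here name no annotation, so no positions of the files' features are printed. Depth is unknown and no count test or detection limit was made.

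The 10 genes and the pathway and marker lists were chosen with earlier results of these data known. Groups came from the labels. Features whose mean over the 6 libraries reached 1 TPM were tested on log2(TPM + 1) with limma 3.58.1 in R 4.3.3 (empirical Bayes with a trend, no covariates, two-sided), adjusted by Benjamini-Hochberg over all tested features at a threshold of 0.05. The test was also run on simulated data with independent noise for each feature and library. Those data hold no library that stands apart in many genes at once, as RT replicate 3 did. Named were all 10 members, the 2 tested genes with the smallest p in each pathway group and in the ER chaperone list, and the 5 features most like Atf4. Fgf21, Eif4ebp1 and Nupr1 were named after their values were seen. Gene overlaps came from GENCODE M21 by Ensembl identifier, promoter sequences from RefSeq (GRCm38.p6) by symbol. Protein sequences were not analysed here. Alternatives were other pseudocounts (0.1 and 0.5), a minimum mean of 5 TPM, no filter, quantile normalisation, median-of-ratios scaling, robust empirical Bayes, no trend, a replicate block, leaving out each library, and, added later, the Ddit3 rows summed. Figures were drawn with matplotlib 3.10.9.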

Additional observations from a re-analysis of the deposited data

How the results depend on the processing

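Across 16 alternatives, 152 of 170 values of the members kept their direction and side of the threshold, 16 changed sign and 2, Atf4 and Ppp1r15a without RT replicate 3, newly passed. The count of members past the threshold was 0 in every other setting, and 0 to 2 with single libraries left out. For other pathway genes it was 0 to 28 with single libraries left out. Without RT replicate 3, 3298 of all tested features passed as lower, so both counts are to be read beside that. Members whose groups did not overlap numbered 0 as deposited, 1 with median-of-ratios scaling (Psat1, higher), 2 with quantile normalisation (Asns and Psat1, higher) and 0 to 3 with single libraries left out: Phgdh higher without CT replicate 1, Asns higher without RT replicate 1, and Atf4, Trib3 and Ppp1r15a lower without RT replicate 3. Over all features 7 passed as deposited, 4 after either median-of-ratios scaling or quantile normalisation, 0 without a filter, and 1 to 3534 with single libraries left out. Signs changed for Atf5 with median-of-ratios scaling (0.36) and quantile normalisation (0.30) and for Trib3 with a pseudocount of 0.1 (-0.0017). With single libraries left out, log2 changes ran from -0.42 to 0.19 for Atf5, -1.11 to 1.28 for Chac1, -0.03 to 0.68 for Ddit3, -1.23 to 2.20 for its short feature, -0.16 to 0.52 for Mthfd2, -1.79 to 0.17 for Ppp1r15a, 0.03 to 0.64 for Psat1 and -0.38 to 0.34 for Trib3. The causes of these shifts were not tested. With the replicate number as a block, 4 of all features and 0 members passed. Deviations from the group means correlated at -0.05, -0.11 and -0.20 between same-numbered libraries, over tested features. Between differently numbered libraries the correlations ran from -0.09 to 0.18. Deviations within a group of 3 depend on each other, so these values cannot tell whether same-numbered libraries share handling. With a mean of at least 5 TPM, Trib3, Asns, Phgdh, Psat1 and Mthfd2 were not tested.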

Other observations

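Eif4ebp1, a translation repressor that ATF4 induces and mTORC1 inactivates, had the widest spread of the mTORC1 and translation group. It was at 41.4, 55.6 and 1247 TPM in RT replicates 1, 2 and 3, against 374, 741 and 292 TPM in CT. RT replicates 1 and 2 lay below and RT replicate 3 above every CT library, as for Atf4, Ppp1r15a and Trib3. The log2 change was -1.59 (SE 1.23, adjusted p = 0.527 with limma), and -3.15 (adjusted p = 0.0124) without RT replicate 3.

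Nupr1, a small stress-induced nuclear protein, was at 10.2, 13.4 and 23.6 TPM in RT replicates 1, 2 and 3, against 14.7, 5.66 and 9.84 TPM in CT. Its log2 change, 0.60 (SE 0.43, adjusted p = 0.506 with limma), was above 0 as in 5 of the 54 tested pathway genes, beside 21.5% of all tested features.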
